A study of Rattus norvegicus with 4 samples.

Results

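Both arms of 4 rat microRNA (miRNA) precursors, miR-652, miR-328a, miR-140 and miR-324, were followed in exosomal RNA of serum, exosomes being vesicles shed by cells. They are the 8 rows of an array of 719 miRNAs named rno-miR-652-5p, rno-miR-652-3p, rno-miR-328a-5p, rno-miR-328a-3p, rno-miR-140-5p, rno-miR-140-3p, rno-miR-324-5p and rno-miR-324-3p; the prefix for rat is left out from here on. miR-652 and miR-328a were chosen by their measured signals, because their arms part on the severe array, and miR-140 and miR-324 for contrast, so every value that involves the severe array is a description of the choice and carries no test. The array held 262 precursors with a 5p and a 3p name. There were 4 groups with 1 array each: naive male rats without injection (day 0), and male rats with hepatocellular carcinoma (HCC) called light at day 35, moderate at day 49 and severe at day 49. Per the labels' protocol the tumour rats received an HCC cell line, whereas the design text speaks of 1 dose of HCC exosomes and spells the strain baffolo. The line injected, the rats' age and any pooling of rats are not given in the sources used here, and 4 independent experiments at each time are mentioned in the design text. Each group being 1 array, no p-value can be given, and disease and day cannot be told apart against the naive array. Errors are standard errors (SE) from spot to spot within an array and hold no variation between rats or arrays, and a comparison of groups is here a comparison of single arrays.

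A miRNA precursor folds into a hairpin, from which Drosha and Dicer cut a short duplex with 1 strand from each side, the 5p arm and the 3p arm. An Argonaute protein usually keeps one strand, which then represses messenger RNAs that match its seed, and the other strand is degraded; some precursors keep both. Both arms of a precursor come from the same transcript, so a ratio of their signals cancels a factor that acts on both arms alike, through the transcript or the array. Background and effects that differ between probes do not cancel in it. The precursors lie within the span of protein-coding genes in RefSeq: miR-652 within Tmem164, miR-328a within Elmo3, miR-140 within Wwp2 and miR-324 within Acadvl. miR-140 is a miRNA of cartilage, whose 5p arm represses the histone deacetylase Hdac4 and the protease Adamts5. miR-324-5p is known as a repressor of the Hedgehog pathway proteins Smo and Gli1. miR-328-3p is known to repress the drug transporter Abcg2 and calcium channel genes of the heart, and miR-652-3p is an abundant blood miRNA.

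RefSeq's table (build GRCr8) gave mature sequences for 6 of the 8 members. They are printed 5′ to 3′ with the seed, bases 2 to 8, in capitals, because the arms of a precursor carry different seeds and a change of arm is a change of target set.
miR-652-5p: aCAACCCUaggagggggugccau
miR-652-3p: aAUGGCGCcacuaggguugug
miR-140-5p: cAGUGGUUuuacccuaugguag
miR-140-3p: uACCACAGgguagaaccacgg
miR-324-5p: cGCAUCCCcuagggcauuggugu
miR-324-3p: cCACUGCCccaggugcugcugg
The 6 seeds differ from each other, and 0 other miRNAs of the array with a sequence in the table share any of them. The hairpin of miR-652, whose arms part furthest, is shown with both mature arms in capitals, the 5p arm coming first.
miR-652 hairpin: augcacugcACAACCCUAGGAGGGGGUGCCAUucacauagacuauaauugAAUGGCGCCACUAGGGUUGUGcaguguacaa
The arms are separated by 18 bases of loop there, and by 17 in miR-140 and 12 in miR-324.

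Each miRNA had 2 probes of 10 spots among these members. A value is a background-subtracted signal in intensity units, the mean of each probe's spots added up over its probes. Differences between arrays are log2 differences after each array was divided by its 75th percentile over miRNAs detected on all arrays (666, 356, 954 and 415 units for naive, light, moderate and severe, the array order kept below). A miRNA counts as measured where the scanner software detected it, where its signal reached the floor of the array (13.1 to 16.0 units), and where 1 probe or more had a share of 0.5 or higher of spots well above background. An unmeasured arm gives a bound only, with each probe set to the floor or to its own signal if that is higher. The level of a 3p over 5p ratio depends on how each probe binds, so it is not read as a ratio of molecules; only its shift between arrays is compared. No scaling enters that shift. A difference or shift of at least 2-fold, a log2 value of 1, is called past 2-fold.

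The moderate array was the brightest and the severe array had the lowest spike-in signal and the most outlier spots. Of 719 miRNAs, 124, 110, 150 and 112 were measured in array order. The summed signal of measured miRNAs was 0.642, 1.58 and 0.693 times the naive array's on the light, moderate and severe arrays. The labelling spike-in dmr_31a read 0.963, 0.840 and 0.484 times its naive value, and the spike-in dmr_285 read 0.986, 0.945 and 0.744 times. Outlier spots numbered 386 or 387 on 3 arrays and 525 on the severe array. The 5 leukocyte markers miR-223-3p, miR-146a-5p, miR-150-5p and both arms of miR-142 were measured on all arrays, with a summed signal over each array's 75th percentile of 12, 16.8, 17.0 and 6.54. Most of that sum was miR-223-3p, at 9.81 on the naive and 5.21 on the severe array. The markers did not move alike: on the severe array miR-150-5p stood at −3.11 from naive, miR-223-3p at −0.91, miR-142-5p at −0.64, miR-146a-5p at −0.44 and miR-142-3p at 0.03. Of the 3 platelet markers miR-126a-3p, miR-191a-5p and miR-223-3p, 2 were measured on each array except the moderate, where 3 were; their sums were 9.92, 13.7, 15.4 and 5.18, carried by miR-223-3p, which is also on the leukocyte list. Red-cell markers summed to 42.0, 55.4, 46.2 and 34.8, with 2 of 3 measured, or 3 on the severe array; miR-451-5p carried the sum and stood at −0.30 from naive on the severe array, while miR-144-3p stood at 1.82. Hepatocyte markers summed to 2.21, 0.789, 1.53 and 2.46, with 3, 2, 3 and 2 of 3 measured, and on the severe array miR-122-5p stood at −0.75 and miR-192-5p at 1.56. The sums were, for muscle markers, 1.89, 1.16, 3.60 and 0.0516, with 2, 2, 3 and 1 of 4 measured. All these sums include unmeasured markers, some with a signal below 0. On the severe array the measured muscle marker, miR-133b-3p, alone read 0.0948. Their part in the results was not tested, and fewer vesicles of a source and less RNA per vesicle cannot be told apart.

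**Figure D1:**
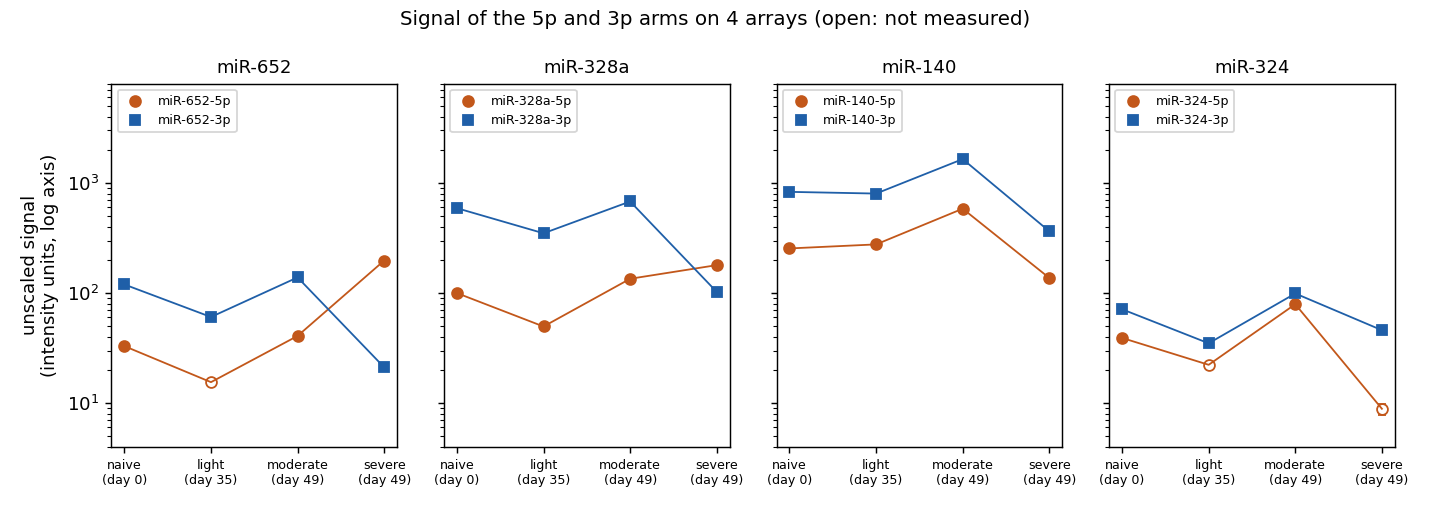
Unscaled signal in intensity units (log axis) of the 5p arm (orange circles) and the 3p arm (blue squares) of each precursor on the 4 arrays; bars are spot SE, and open symbols were not measured. From the moderate to the severe array miR-652-5p goes from 40.7 to 197 and miR-652-3p from 139 to 21.1, while both arms of miR-140 go down; where lines cross depends on the probes and is not read.

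On the severe array the arms of miR-652 moved in opposite directions, each set against its own signal on the other arrays. The 5p arm read 32.9 ± 1.12 (naive), 15.5 ± 0.767 (light), 40.7 ± 1.13 (moderate) and 197 ± 2.85 units (severe). It is high on the severe array alone, and on the light array it was not measured, with 0 of 17 spots well above background. The 3p arm, the one usually called the mature miR-652, read 120 ± 1.72, 60.5 ± 2.0, 139 ± 1.74 and 21.1 ± 1.03 units in the same order. It is lowest on the severe array, where it ranks 110 of 112 measured miRNAs against 74 of 124 on the naive array. miR-652-5p moved the other way, from rank 111 of 124 to rank 49 of 112.

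After scaling, miR-652-5p was 9.61-fold higher on the severe than on the naive array (log2 3.27 ± 0.05), the highest of 102 miRNAs measured on both. On the naive array 10 of its 20 spots were well above background. miR-652-3p was 3.53-fold lower (log2 −1.82 ± 0.07), in place 6 from the lowest. Against the moderate array of the same day the values were 11.1-fold higher (3.48 ± 0.05) and 2.86-fold lower (−1.52 ± 0.07). The log2 of 3p over 5p was 1.86 ± 0.05 (naive), 1.77 ± 0.04 (moderate) and −3.22 ± 0.07 (severe), and at least 0.999 (light). The shift from naive to severe was therefore −5.09 ± 0.09, or 34.0-fold toward the 5p arm, and from moderate to severe −4.99 ± 0.09. From naive to moderate it was −0.09 ± 0.07, less than 2 spot SE, a value not independent of a choice that set the severe array apart. The arms' own differences from naive there were −0.21 ± 0.06 (5p) and −0.30 ± 0.03 (3p), and over the scalings they ran from −0.49 to 0.47 and from −0.45 to 0.38, so their sign depends on the scaling.

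Single probes of miR-652 shifted in the direction of the sums. Probe 1 of the 5p arm read 9.20, 2.57, 11.6 and 73.6 units in the order naive, light, moderate, severe, and probe 2 read 23.7, 12.9, 29.1 and 124. Both 5p probes are brightest on the severe array, where all 20 spots were well above background. Probe 1 had 0 of 10 such spots on the naive and 2 of 9 on the moderate array, and lay below the floor on both. The 5p arm on these arrays thus rests mainly on probe 2, which alone was 8.36-fold higher on the severe than on the naive array. Of the 3p arm, probe 2 carried nearly all signal, at 105, 56.0, 123 and 21.4 units, and probe 1 read 14.8, 4.48, 15.9 and −0.302. On the severe array the 3p arm thus rests on probe 2 alone, near the floor of 16.0. From naive to severe 1 probe pair gave a measured shift, −4.67, and 1 a bound, a shift toward the 5p arm of at least the size of −4.53. From moderate to severe 1 pair gave a measured shift, −4.61, and 3 gave bounds of −2.08, −2.48 and −5.01, each the smallest size the shift toward the 5p arm could have. The level of the ratio differed between probe pairs: on the moderate array it was −0.87 with 3p probe 1 over 5p probe 2, and 2.08 with probe 2 of each arm. With normexp background correction and its offset of 50 the shift from naive was −1.74, and the difference of miR-652-3p alone was −0.27 against naive and 0.079 against moderate.

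The arms of miR-328a also moved in opposite directions on the severe array. Its 3p arm read 590 ± 4.26, 349 ± 3.37, 679 ± 4.99 and 102 ± 1.21 units (naive, light, moderate, severe). That arm ranks 30 of 124, 29 of 110 and 33 of 150 measured miRNAs on the first 3 arrays and 64 of 112 on the severe array. The 5p arm read 99.8 ± 1.66, 49.6 ± 1.18, 135 ± 1.72 and 179 ± 2.48 units. In unscaled signal it is lowest on the light array and highest on the severe array.

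After scaling, miR-328a-5p was 2.88-fold higher on the severe than on the naive array (log2 1.53 ± 0.03) and miR-328a-3p 3.60-fold lower (−1.85 ± 0.02). Without scaling the 5p arm's difference was 0.84 and no longer past 2-fold. Against the moderate array the values were 1.61 ± 0.03 and −1.53 ± 0.02, and without scaling the 5p arm stood at 0.41. The log2 of 3p over 5p was 2.56 ± 0.03, 2.81 ± 0.04, 2.33 ± 0.02 and −0.81 ± 0.03 in array order. The shift from naive to severe was −3.37 ± 0.04, or 10.4-fold toward the 5p arm, and all 4 probe pairs lay between −2.98 and −4.12. From moderate to severe it was −3.14 ± 0.03, with probe pairs from −2.88 to −3.61.

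On the light and moderate arrays miR-328a kept its ratio within 2-fold of naive. The choice set the severe array apart from the others, so a steady ratio on these arrays is not independent of it. The shift from naive was 0.25 ± 0.05 on the light array, with probe pairs from 0.19 to 0.30, and −0.21 with normexp. On the moderate array it was −0.23 ± 0.03, with probe pairs from −0.52 to −0.09, and −0.02 with normexp. The miR-328a-5p and miR-328a-3p differences from naive were −0.10 ± 0.04 and 0.15 ± 0.02 on the light array, and −0.09 ± 0.03 and −0.32 ± 0.01 on the moderate array. Over the scalings the 3p arm's light difference ran from −0.76 to 0.15, and the moderate differences from −0.29 to 0.60 (5p) and −0.46 to 0.37 (3p), so these signs depend on the scaling.

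**Figure D2:**
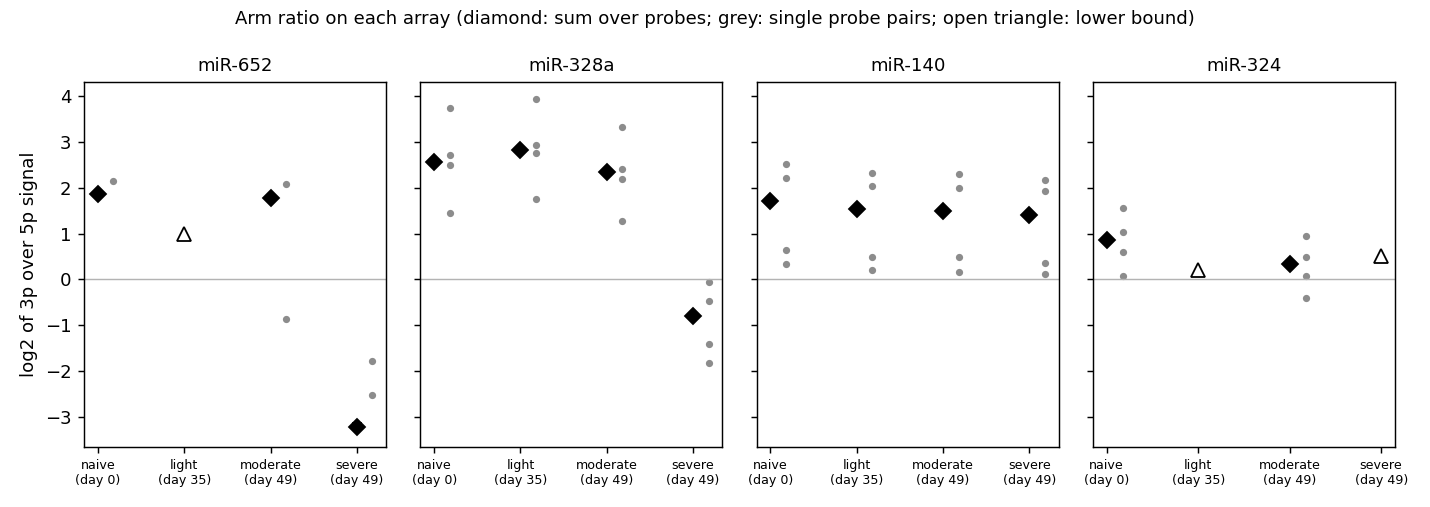
Log2 of 3p over 5p signal on the 4 arrays; diamonds are sums over probes with spot SE, grey dots are single probe pairs with both probes well above background, and open triangles are lower bounds. For miR-328a the ratio is 2.56, 2.81 and 2.33 on the first 3 arrays and −0.81 on the severe array, while miR-140 stays between 1.41 and 1.71.

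miR-140 moved as a pair. The 5p arm read 254 ± 3.26, 277 ± 3.03, 584 ± 4.47 and 137 ± 2.17 units in array order. The 3p arm read 830 ± 4.82, 801 ± 7.09, 1648 ± 8.44 and 364 ± 3.68 units. In unscaled signal both are highest on the moderate array, the brightest, and lowest on the severe array; relative to each array's 75th percentile both are highest on the light array, at 77.7% (5p) and 225% (3p) against 61.2% and 173% on the moderate array. On every array all their spots kept were well above background. The log2 of 3p over 5p was 1.71 ± 0.02, 1.53 ± 0.02, 1.5 ± 0.01 and 1.41 ± 0.03. Its shifts from naive were −0.17 ± 0.03 (light), −0.21 ± 0.02 (moderate) and −0.30 ± 0.03 (severe), each more than 2 spot SE from 0 and none past 2-fold. Single probe pairs ranged from −0.13 to −0.34 over these shifts. With normexp the shifts were −0.14 (light), −0.01 (moderate) and −0.44 (severe).

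Scaled by the 75th percentile, miR-140-5p was 2.04-fold higher on the light than on the naive array (log2 1.03 ± 0.02), in place 2 of 109 miRNAs, and miR-140-3p stood at 0.85 ± 0.02, in place 6. Without scaling these differences were 0.12 and −0.05, while the median of all 109 moved from 0.28 to −0.62. Both arms lay above that median. Scaling by 1 factor per array moves every miRNA alike, so their distance from the median is the same in both settings by construction. On the moderate array miR-140-5p stood at 0.68 ± 0.02 and miR-140-3p at 0.47 ± 0.01, between 0.54 and 1.37 and between 0.28 and 1.16 over the scalings, with medians of all 121 miRNAs from 0 to 0.91. On the severe array they stood at −0.21 ± 0.03 and −0.51 ± 0.02, and below 0 under all 5 scalings. The median of all 102 miRNAs was −0.16 there, and between −0.85 and −0.11 over the scalings, so it too was below 0 under each. Of the other markers on the cartilage and connective tissue list, scaled by the 75th percentile, miR-199a-3p, miR-214-3p and miR-143-3p stood at 0.32, 0.49 and 0.23 on the light array, nearer to naive than both arms of miR-140, and at 1.28, 1.35 and 1.31 on the moderate array, further from it; miR-143-3p stood at −1.38 on the severe array, where the other two were not measured. Whether they differ from miR-140 was not tested.

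For miR-324 the 5p arm was too dim on the light and severe arrays to be compared in full. It read 39.0 ± 1.22, 22.2 ± 1.38, 79.1 ± 1.12 and 8.86 ± 1.03 units in array order. It was not measured on the light array, with 4 of 20 spots well above background, nor on the severe array, with 0 of 20. The 3p arm read 71.2 ± 1.02, 34.9 ± 0.969, 99.0 ± 1.43 and 45.9 ± 0.847 units and was measured on every array. In unscaled signal the 5p arm was higher on the moderate than on the naive array, its light and severe values have no order, and the 3p arm is lowest on the light array.

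Scaled, miR-324-3p stood at −0.12 ± 0.05, −0.04 ± 0.03 and 0.05 ± 0.03 from naive on the light, moderate and severe arrays. Its probes disagreed on the severe array: probe 1 stood at 0.49 and probe 2 at −0.24. miR-324-5p stood at 0.50 ± 0.05 on the moderate array, between −0.12 and 1.18 over the scalings, and miR-324-3p there between −0.25 and 0.64. The log2 of 3p over 5p was 0.87 ± 0.05 on the naive and 0.32 ± 0.03 on the moderate array, a shift of −0.54 ± 0.06 with all 4 probe pairs between −0.46 and −0.60. With normexp that shift was −0.11. On the severe array the ratio was at least 0.52, which gives no direction against naive and a shift of at least 0.20 against moderate. That bound became 1.20 when 1 floor stood for the sum over both probes, and 2.76 with the total signal that the scanner software reports. With normexp it was 0.0095. From moderate to severe 3 probe pairs gave bounds toward the 3p arm, from 0.15 to 0.80, and the remaining pair gave none. Whether miR-324 shifted past 2-fold toward the 3p arm is not settled by these arrays.

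**Figure D3:**
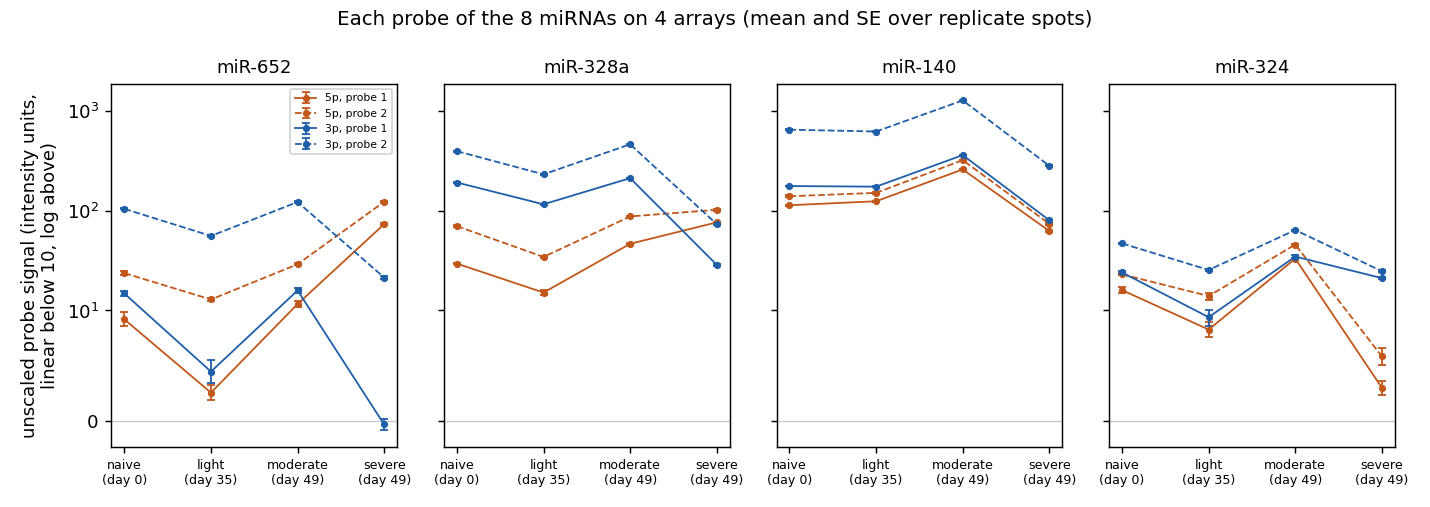
Unscaled signal of each probe (intensity units, linear below 10 and log above) on the 4 arrays, with the 5p arm in orange and the 3p arm in blue, probe 1 as a solid and probe 2 as a dashed line, and spot SE as bars. Both 5p probes of miR-652 end highest on the severe array, at 73.6 and 124, and both 3p probes of miR-328a end lowest there, at 28.7 and 73.5.

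Counted over the 8 members, 1 was at least 2-fold higher and 0 lower on the light than on the naive array, where 1.6% of the 125 miRNAs measured on either array were higher and 0.8% lower. On the moderate array 0 members were past 2-fold in either direction, where 5.23% of 153 miRNAs were higher and 0% lower. These counts depend on the scaling: the 1 higher member on the light array became 0 under the 4 other scalings, and on the moderate array 2 members and 35 miRNAs were higher without scaling, and 3 members and 55 miRNAs with spike-ins. On the severe array 2 members were higher and 2 lower, where 20.1% of 134 miRNAs were higher and 15.7% lower; that contrast chose the members. Against the moderate array 2 were higher and 2 lower, where 17.8% of 157 were higher and 15.9% lower. The comparisons against naive share the naive array. The median over the members measured on both arrays was 0.03 of 6 (light), −0.06 of 8 (moderate) and −0.21 of 7 (severe), beside medians over all measured miRNAs of 0.28, 0.23 and −0.16.

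Few precursors allow the arm ratio to be compared. Both arms were measured for 7, 4, 12 and 6 precursors in array order, and on all 4 arrays for miR-140, miR-142 and miR-328a. From naive to severe 5 precursors gave a shift or a bound, of which 2 (40%) were past 2-fold toward the 5p arm, miR-652 and miR-328a, and 1 (20%) toward the 3p arm. The last was miR-150, a miRNA of mature lymphocytes, with a bound of 4.66. Its 5p arm read 502 units on the naive and 36.3 on the severe array, while its 3p arm read 6.16, not measured, and 57.3. miR-142, of blood cells in general, shifted by 0.67 ± 0.03 toward the 3p arm. Arms thus parted in both directions on the severe array.

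From naive to moderate 8 precursors gave a shift or a bound, with 0% past 2-fold toward the 3p arm and 12.5% toward the 5p arm, which was miR-142 at −1.04 ± 0.02. From naive to light 4 did, with 25% toward the 3p arm, which was let-7d at 1.12 ± 0.07, and 0% toward the 5p arm. From moderate to severe 6 did, with 33.3% in each direction: miR-652 and miR-328a toward the 5p arm, and miR-150, with a bound of 4.87, and miR-142, at 1.71 ± 0.03, toward the 3p arm. Of the 4 precursors studied here, miR-140 and miR-324 were within 2-fold in every comparison that gave a value, apart from the miR-324 bounds named above.

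**Figure D4:**
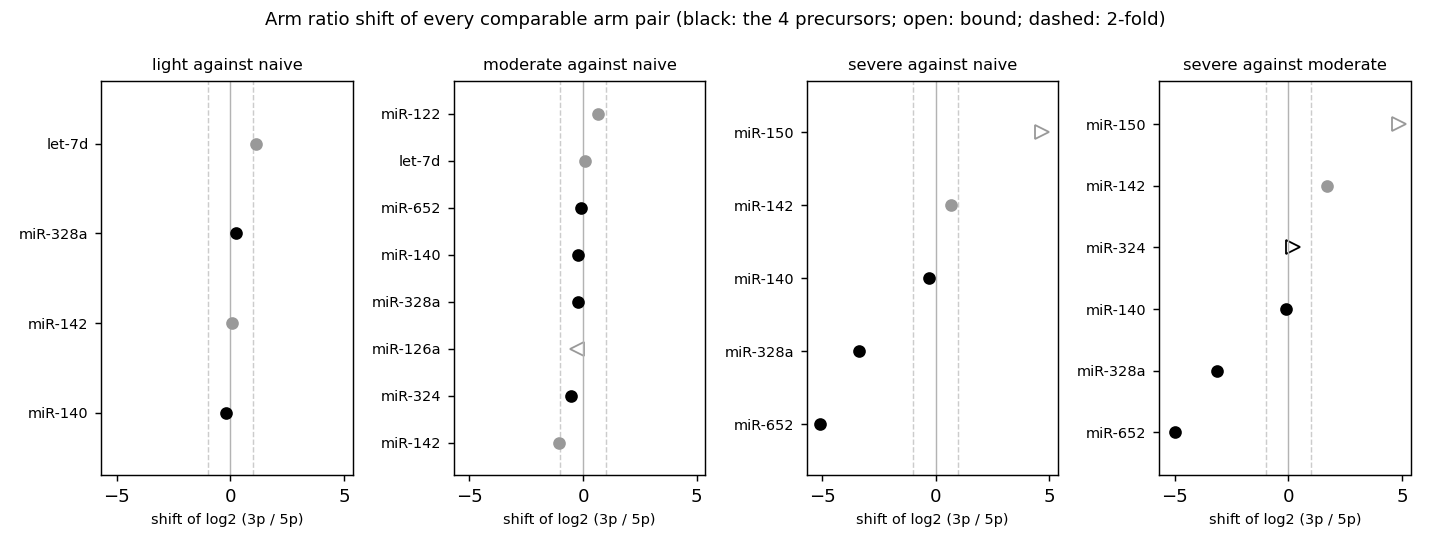
Shift of log2 (3p / 5p) for every precursor with a shift or bound in each comparison; black marks the 4 precursors described here, grey marks the others, bars are spot SE, open triangles are bounds and dashed lines are 2-fold. In the comparison of severe with naive, miR-652 lies at −5.09 and miR-328a at −3.37, and the bound of miR-150 lies at 4.66 on the opposite side.

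Likeness was measured as the Euclidean distance over the log2 differences of the light, moderate and severe arrays from naive, among 96 other miRNAs measured on all arrays. miR-652-3p lay nearest to miR-103-3p (distance 0.165) and then to miR-328a-3p (0.226), and miR-328a-3p lay nearest to miR-652-3p and then to miR-103-3p (0.242). The 3p arms of miR-652 and miR-328a, both low on the severe array, are thus among each other's nearest profiles. miR-328a-5p lay nearest to miR-192-5p (0.130) and then to miR-370-3p (0.439), both high on the severe array at 1.56 and 1.95. miR-140-5p lay nearest to miR-301a-3p (0.320) and then to its own partner miR-140-3p (0.405), whose nearest were miR-3473 (0.199) and miR-146a-5p (0.233). miR-324-3p lay nearest to miR-92a-3p (0.174) and then to miR-25-3p (0.327). The distances use the severe array that chose the members.

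In base composition, miR-652-5p, the member furthest above naive on the severe array, holds a run of 5 G, and the other 5 members with a sequence hold runs of 2 or 3. G and C make up 60.9% of miR-652-5p, 57.1% of miR-652-3p, 45.5% of miR-140-5p, 57.1% of miR-140-3p, 60.9% of miR-324-5p and 72.7% of miR-324-3p. Among 90 of 102 miRNAs measured on the naive and severe arrays that have a sequence in the table, the 20 at least 2-fold higher had a median of 54.5% G and C, and the 17 lower and the 53 others had medians of 45.5% each. Across these 90 the severe difference correlated with the share of G and C at Pearson r 0.26 and Spearman rho 0.23, with the share of U at −0.37 and −0.31, and with the share of G at 0.17 and 0.05, a description over miRNAs that share the same arrays and the same labelling. The part of base composition in the result was not tested.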

How the data were processed

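The 4 samples of serum exosome RNA, labelled with Cy3 alone, were each read on 1 Agilent rat miRNA array of design 046066, all on 1 slide with 1 scan time per the file headers. The deposited intensity values come from Agilent Feature Extraction 10.7.3.1 per the file headers (9.1 per the submitters' processing notes), background-subtracted with spatial detrending and not scaled between arrays. The deposited other columns are flags of 0 or 1 per spot and miRNA. The labels describe cRNA amplification for labelling, a messenger RNA procedure, which was not resolved. The deposited value table holds 7 of the 8 members, at the scanner software's total intensity within 0.0424%. The grid's build is rn4, so RefSeq (GRCr8) served for names and sequences and no coordinates are printed. RefSeq also gave the genes that span the precursors.

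Outlier spots were left out and 0 spots were saturated; the median variation between spots of a probe was 4.80% to 5.87%. Log2 differences, arm ratios and bounds were computed with Python 3.11.15 and limma 3.58.1 (normexp). The number of arrays limits the precision. The calculation was tested on simulated data. Members and lists were chosen with earlier results of these data known. The miRNAs named beside the members are marker lists, the nearest 2 profiles of each member measured on all arrays, and up to 6 other arm pairs with both arms measured on the naive and severe arrays (1 pair, miR-142); let-7d and miR-150 were named after their values were seen. The requirement of 1 probe well above background and the floor for each probe were set after the data were seen.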

Additional observations from a re-analysis of the deposited data

Results flagged for a closer look

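The arms of miR-140 lay on opposite sides of the naive array in different tumour groups. miR-140-5p stood at log2 1.03 (light) and 0.68 (moderate) but at −0.21 (severe). miR-140-3p stood at 0.47 (moderate) and −0.51 (severe). With the same scaling the median over all measured miRNAs also changed side, at 0.28 (light), 0.23 (moderate) and −0.16 (severe). Each group is 1 array, the naive array is shared, and the difference between groups was not tested.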

How the results depend on the processing

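The arm shifts of miR-652 and miR-328a toward the 5p arm on the severe array stayed past 2-fold under all alternatives that gave a value, between −1.74 and −5.54 (miR-652) and −2.05 and −4.12 (miR-328a) from naive; normexp with its offset, which lowers folds by construction, gave the smallest. Bounds of arm shifts were placed by their own size, although a lower bound below 1 does not show a shift within 2-fold. On that count 146 of 150 alternative values of arm shifts kept direction and side of 2-fold. The others were miR-324 from moderate to severe (bounds of 2.76 with the scanner software's total signal and 1.20 with 1 floor for the sum, an alternative chosen after seeing the data) and, with normexp, miR-328a on the light array (−0.21) and miR-652 on the moderate array (0.023).

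Member counts followed the scaling. Without scaling 0 members were higher and 2 lower on the light array, beside 0 and 30 of the 125 miRNAs measured on either array. On the moderate array 2 members and 35 of 153 miRNAs were then higher, and on the severe array 1 and 18 of 134. Against moderate 1 member was higher and 6 lower on the severe array, beside 12 and 84 of 157 miRNAs, and miR-324-3p stood at −1.11 there. With labelling spike-ins 0 members were higher on the light and 3 on the moderate array, beside 0 and 55 miRNAs. From moderate to severe 1 was then higher and 4 lower, beside 19 and 60 miRNAs. The 1 higher member on the light array, miR-140-5p, became 0 with median scaling, quantile normalization, the brightest probe, the scanner software's total signal and normexp. With normexp 1 member was higher and 1 lower on the severe array, and 0 lower against moderate, where miR-652-3p stood at 0.079. Over all miRNAs 15 were then higher and 5 lower, and 8 lower against moderate. Over all miRNAs the counts of higher and lower ran from 0 to 2 and 1 to 30 on the light array, 0 to 55 and 0 to 5 on the moderate, 15 to 32 and 5 to 44 on the severe, and 12 to 32 and 8 to 84 for severe against moderate.

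Arm pairs past 2-fold became, with the total signal, 3 toward the 3p arm and 2 toward the 5p arm from naive to moderate. From naive to severe they became 2 toward the 3p arm and 3 toward the 5p arm, and from moderate to severe 3 toward each arm. With normexp they became 0 toward the 3p arm on the light array, 0 toward the 5p arm on the moderate array and 1 toward the 3p arm from moderate to severe, and with detection by spots well above background 0 toward the 3p arm on the light array. The causes were not tested. Scaling by the 75th percentile over all probes was not run, since that percentile lay below 0 on the naive, light and severe arrays. No paired analysis was possible because each group has 1 array. Signal over background limits miR-324-5p and miR-652-3p on the severe array and miR-652-5p on the light array. It also limits miR-652-5p on the naive and moderate arrays, where probe 1 lay below the floor.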

Other observations

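Over all miRNAs measured on the naive and severe arrays, the 47 with a 5p name had a median log2 difference of −0.50, with 8 at least 2-fold higher and 13 lower, and the 48 with a 3p name had a median of 0.20, with 12 higher and 7 lower. miR-652 and miR-328a, whose 5p arms are the higher ones there, lie against those medians. From moderate to severe the medians were −0.80 over 47 miRNAs with a 5p name and −0.05 over 49 with a 3p name, while on the light and moderate arrays against naive they were 0.23 and 0.36, and 0.17 and 0.40. The 5p or 3p name says on which side of the hairpin a miRNA lies and not whether it is the more abundant arm.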
